A study of Mus musculus
Mus spretus with 18 samples.

Results

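Embryonic stem cells (ESC) were set against DMSO-treated fibroblasts, both derived from F1 hybrids of a C57BL/6J mother and a SPRET/EiJ father, by skipped exon usage and by gene expression. The 2 ESC libraries came from independent clones grown in Neurobasal and DMEM/F12 medium with N2B27, 2i (inhibitors of MEK and GSK3) and LIF. The 2 fibroblast libraries came from a cell line of the same cross grown in DMEM with serum and given DMSO, the vehicle of the study's splicing inhibitor, for 4 h. These are 4 of the 18 libraries of the series, all stranded mRNA libraries. The exons were those of the ESC table and of the fibroblast table that matched by gene and exon coordinates and had at least 20 junction reads in all 4 libraries. This gave 28987 skipped exon events in 25571 exons and 8151 genes, out of 30837 matched events and 124450 distinct events in the whole series. The fibroblast replicates were not described as separate cultures, so p-values measure only the spread between these samples, which may be technical.

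A skipped exon is either joined into the mRNA or left out, and the percent spliced in (PSI) is the share of transcripts that hold it, from 0 to 1. Pluripotent cells grow as epithelial colonies held together by E-cadherin, while fibroblasts are mesenchymal cells rich in matrix, integrins and actin cables. Splicing regulators such as the MBNL, ESRP and RBFOX proteins bind near such exons and are known to differ between these states; MBNL proteins are known to hold back exons used in ESC, and ESRP proteins are known to drive epithelial isoforms.

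The labels held against the markers. All 27 pluripotency genes were higher in ESC and 33 of 35 mesenchymal genes were higher in fibroblasts, while Fap, a fibroblast protease, was at most 0.137 TPM (the deposited expression unit, scaled for gene length and library size) in every library. The 2 ESC clones stood apart from each other. The median absolute difference in PSI was 0.0115 between the clones and 0.0029 between the fibroblast replicates, and the median absolute log2 difference in TPM was 0.415 and 0.059. Libraries of a pair were not the same library: the chi-square of read numbers per degree of freedom over 8151 genes was 143.57 between the clones and 8.16 between the fibroblast replicates. Junction reads ranged from 73349137 to 151755602 per library, and the median member had 690 to 830 reads. The effective length of the skipping form was 75 in ESC and 149 in fibroblasts, so read length and cell type cannot be told apart. Markers of other lineages were mostly low. Their summed TPM in the 2 clones was 12.5 and 6.96 over 6 endoderm genes, 64.4 and 38.1 over 6 neural genes, 88.4 and 40 over 5 trophoblast genes and 52.8 and 127 over 5 genes of primed epiblast, the last mostly Dnmt3b. The fibroblast sums for these lists were at most 25.5. Endothelial genes summed to 30.3 and 12.8 in ESC, and keratinocyte genes to 17.8 and 0.853. The leukocyte sum of 162 and 42.2 in ESC against 15.3 and 15.2 was mostly Cd68, with Ptprc at 0.022 and 0.0106. Muscle genes summed to 437 and 435 in fibroblasts, almost all Cnn1, a calponin, with Myod1 at 0 and 0.0124. Adipocyte genes summed to 134 and 135 there, mostly Pparg and Fabp4, with Adipoq at 0.19 and 0.117. The part of these cells in the results was not tested.

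Among pluripotency genes, Pou5f1, which encodes OCT4, stood at 1146 and 1261 TPM in the ESC clones and at 0.0314 and 0 in the fibroblasts. Nanog was at 1026 and 1018 against 0.234 and 0.113, and Sox2 at 409 and 414 against 0.66 and 0.572. No fibroblast library came near an ESC library for these core factors. Dppa5a, an RNA-binding protein of pluripotent cells, reached 5701 and 5552 TPM and was listed at 0 in both fibroblast libraries, as were Tdgf1, Zfp42, Esrrb and Dppa3. Fibroblasts held at least 1 TPM of 5 of the 27 genes, Klf2, Klf4, Klf5, Tbx3 and Tfcp2l1. Klf4, a Krüppel-like factor, was at 373 and 333 TPM in ESC and at 33.2 and 31.5 in fibroblasts, a log2 difference of 3.44 ± 0.111 (SE, n = 2 and 2; limma, adjusted p = 0.000561). Tfcp2l1, a naive-state transcription factor, was at 257 and 437 against 15.5 and 16. The summed level of the 27 genes was 12952 and 13986 in ESC and 88.3 and 83.5 in fibroblasts.

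**Figure D1:**
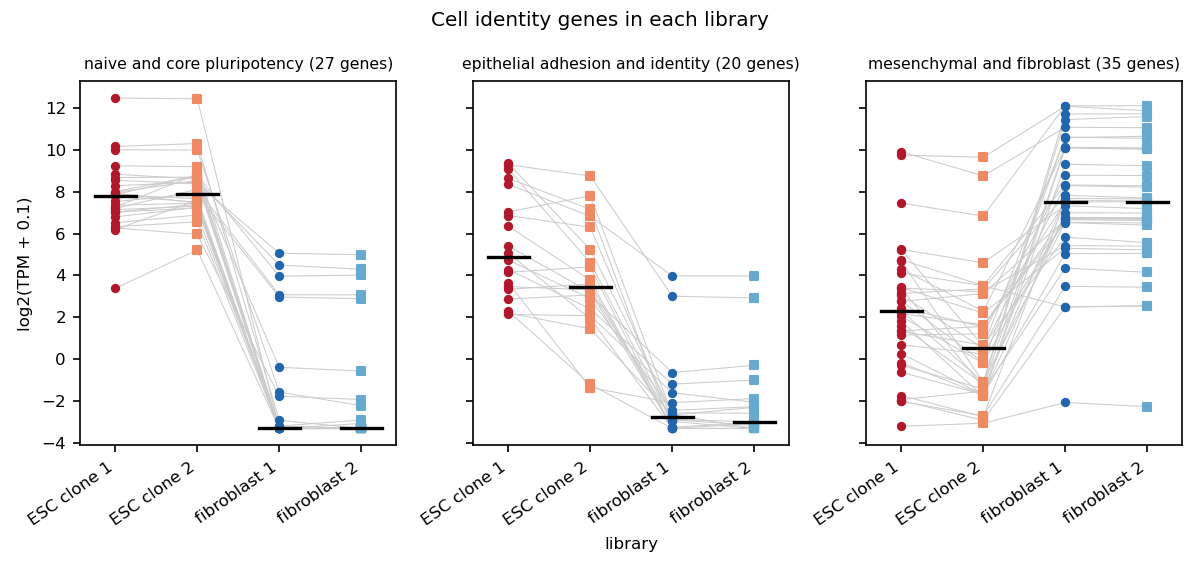
Each point is a gene, on the log2(TPM + 0.1) scale, in each of the 4 libraries, for pluripotency, epithelial and mesenchymal lists; bars are medians and grey lines join a gene across libraries. Pluripotency and epithelial genes were higher in both ESC clones, mesenchymal genes were higher in fibroblasts, and 29 of 35 mesenchymal genes lay higher in clone 1 than in clone 2.

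Across all genes, 16553 passed a TPM of 1 in at least 2 libraries, and 9239 of them (55.8%) were called, at an adjusted p under 0.05 (limma) and a log2 difference of at least 1. In ESC 6026 (36.4%) were higher, and 3213 (19.4%) were higher in fibroblasts. The median log2 difference of all tested genes was 0.46, and rescaling by median ratios lowered it to 0.26, so group medians are read against these values. The share of higher calls moved from 65.2% to 59.4% under that scaling. At least 8-fold differences numbered 2940 toward ESC and 1210 toward fibroblasts.

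The 10 genes with the largest difference toward fibroblasts included matrix proteins and chemokines. Il1rl1, the receptor of interleukin 33, was at 0.118 and 0.0236 TPM in ESC and at 1801 and 1716 in fibroblasts. Mgp, a matrix Gla protein, was at 2.22 and 0.151 against 7344 and 8199. The groups were far apart, and clone 1 held more Mgp than clone 2. Ogn, Smoc2, Abi3bp, Aspn and Prelp, matrix proteins, and the chemokines Cxcl5 and Cxcl12 followed, with log2 differences from -12.22 to -11.27. Toward ESC the list held Pou5f1, Dppa5a, Tdgf1 and Zfp42 with Bex1, Trap1a, Rhox5, Rps4y2, 2210409E12Rik and the miRNA gene Mir295. Rhox5, a homeobox gene, was at 984 and 675 TPM against 0.158 and 0.

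The mesenchymal list had 34 tested members with 33 called higher in fibroblasts (97.1%, against 19.4% of all tested genes). The median log2 difference of the list was -5.88. Vim, the intermediate filament of mesenchymal cells, was at 175 and 114 TPM in ESC and at 4397 and 4424 in fibroblasts. Acta2, smooth muscle actin, was at 25.6 and 0.365 against 3361 and 3376, and Col1a1, a collagen chain, at 19.6 and 4.77 against 1092 and 1039. Both fibroblast libraries lay above both clones in each case. Thy1, often used as a fibroblast surface marker, went the other way, with 17.2 and 11.2 in ESC against 5.51 and 5.73 (log2 difference 1.29, adjusted p = 0.0192), a call lost when clone 1 or either fibroblast library was left out. The summed mesenchymal level was 2256 in clone 1, 1450 in clone 2 and 27068 and 26546 in the fibroblasts. Of 24 genes of TGF-beta signalling, matrix remodelling and integrins, 19 were higher in fibroblasts (79.2%, against 19.4% of all tested genes). In ESC 2 were higher (8.3%, against 36.4%). Timp2, a protease inhibitor, was at 5.44 and 0.825 against 3000 and 2902, whereas Itga6, the laminin-binding integrin chain, was higher in ESC at 154 and 68.3 against 5.75 and 6.12. Tgfbr1 at 21.6 and 26.7 against 21.0 and 20.7 was not called, while its partner Tgfbr2 was at 5.82 and 1.86 against 280 and 272.

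Of 20 epithelial genes, all 18 tested were higher in ESC (100%, against 36.4% of all tested genes), with a median log2 difference of 6.74. Cdh1, E-cadherin, was at 625 and 430 TPM in ESC and at 7.91 and 7.48 in fibroblasts, and Epcam at 131 and 223 against 0.0584 and 0. The clones were uneven here. Krt18, a keratin of simple epithelia, was at 653 in clone 1 and 37.4 in clone 2, and its partner Krt8 at 540 and 24.3. Fibroblasts held under 0.1 TPM of either keratin. Of the list, 16 of 20 were higher in clone 1, with sums of 3064 and 1147.

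Of 14 DNA methylation genes, 8 were higher in ESC (57.1%, against 36.4% of all tested genes) and 2 in fibroblasts (14.3%, against 19.4%), and the second count was 1 without ESC clone 2 or either fibroblast library. Tet1 and Tet2, which oxidise methylated cytosine, were at 139 and 85.1 and at 141 and 165 TPM in ESC, against 0.551 and 0.66 and 5.06 and 4.91 in fibroblasts. Dnmt3l, the methyltransferase cofactor, was at 89.5 and 32.7 against 0.0319 and 0.0309. Of 20 targets of the culture's pathways, 16 were tested. In ESC 5 of these were higher (31.2%, near the 36.4% of all tested genes) and in fibroblasts 6 (37.5%, against 19.4%). Egr1, an immediate early target of MEK signalling, was at 0.297 and 4.33 against 131 and 112. Etv5 was the reverse, at 316 and 295 against 13.9 and 13.1, and Dusp6, another ERK target, at 10.4 and 9.99 against 11.9 and 11.9 was not called.

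Of the 28987 events, 365 (1.26%) were called at an adjusted p under 0.05 and a PSI difference of at least 0.1: 206 (0.711%) were higher in ESC and 159 (0.549%) higher in fibroblasts. These lay in 361 exons (1.41% of exons) of 309 genes, and 364 of 365 had no overlap between ESC and fibroblast libraries. Of all members, 1865 (6.43%) had no overlap and a difference of at least 0.1, and most of these were not called. The median absolute PSI difference was 0.332 toward ESC and 0.368 toward fibroblasts, and 52 and 51 events differed by at least 0.5. Over all members the median was -0.0032, and 82.3% lay above 0.9 or below 0.1 in all 4 libraries. Without effective lengths the called split was 264 and 120. The counts depend on how the spread was pooled, and an earlier form of the model, with a prior taken from all events, gave 510 and 532. Leaving out ESC clone 1 gave 701 and 1026, clone 2 gave 669 and 734, and leaving out a fibroblast library gave 54 and 56, or 71 and 67.

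**Figure D2:**
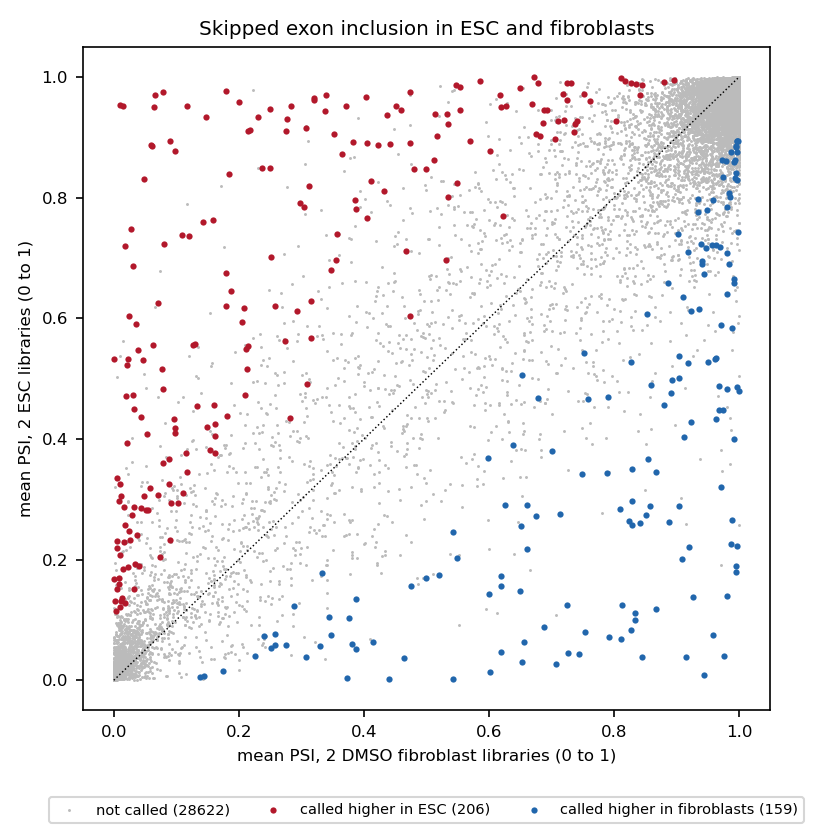
Mean PSI of the 2 ESC libraries against mean PSI of the 2 fibroblast libraries, one point per event, with the dotted line at equality. The 206 events called higher in ESC lie above the line and the 159 called higher in fibroblasts below it.

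The exons with the largest differences toward ESC were nearly fully included there and mostly skipped in fibroblasts. In Sec31a, a COPII coat protein of vesicles leaving the endoplasmic reticulum, a 291-bp exon (chromosome 5, 100373425 to 100373715, mm10) had PSI of 0.952 and 0.989 in ESC and 0.0611 and 0.0703 in fibroblasts. ESC and fibroblasts held opposite isoforms of this gene, a difference of 0.905 (SE 0.0194, adjusted p = 0.000171). Fgfr1, a receptor of fibroblast growth factors, had a 306-bp exon (chromosome 8, 25555469 to 25555774) at 0.976 and 0.928 against 0.117 and 0.118. Mbnl2, a splicing regulator of the muscleblind family, had a 54-bp exon (chromosome 14, 120395712 to 120395765) at 0.826 and 0.944 against 0.0601 and 0.0621. Fibroblasts mostly skipped both exons.

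Aldoa, a glycolytic aldolase, and Nasp, a histone chaperone, followed. The 153-bp Aldoa exon was at 0.863 and 0.926 against 0.0885 and 0.0929, and the 975-bp Nasp exon (chromosome 4, 116610403 to 116611377) at 0.937 and 0.932 against 0.151 and 0.143. Both exons were thus mostly included in ESC and mostly skipped in fibroblasts. Nedd4, a ubiquitin ligase, Scamp4, a secretory carrier protein, and Depdc1a had values of 0.95, 0.887 and 0.877 in ESC on average. The Nedd4, Scamp4 and Gm10499 exons rested on 24 to 37 reads in fibroblasts and lost their call when either fibroblast library was left out. Gm10499 and Scamp4 also lost it when reads were thinned to equal depth. Gm10499 lies in the histocompatibility region of chromosome 17, so its reads may be shared with related genes and its value is uncertain.

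The exons with the largest differences toward fibroblasts included 4 of 21 bp or less. A 15-bp exon of Arhgef10l, a guanine nucleotide exchange factor (chromosome 4, 140568756 to 140568770), had PSI of 0.0148 and 0.00154 in ESC and 0.94 and 0.949 in fibroblasts. A 12-bp exon of Tead1, a transcription factor of the Hippo pathway (chromosome 7, 112856053 to 112856064), had 0.0724 and 0.00696 against 0.968 and 0.983. Each microexon thus shifted by 0.936, with adjusted p of 0.000774 and 0.00405. Mllt4, afadin of adherens junctions, had a 21-bp exon at 0.132 and 0.0184 against 0.939 and 0.977, and Myo7a, an unconventional myosin, an 18-bp exon at 0.0352 and 0.0426 against 0.922 and 0.909. The fibroblast libraries agreed within 0.04 in all 4 genes, while clone 1 lay above clone 2 in 3 of them.

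Palm, Inf2, Golga2, Numa1 and Slain2 followed. In Golga2, a Golgi matrix protein, an 81-bp exon was at 0.0667 and 0.0096 in ESC and 0.853 and 0.838 in fibroblasts, while a 96-bp exon of the same gene was called higher in ESC. In Numa1, a spindle pole protein, a 42-bp exon was at 0.36 and 0.0198 against 0.994 and 0.997. The clones differed widely in Numa1, in which clone 1 lay nearer to fibroblasts and the call was lost when reads were thinned to equal depth. Over the 159 events higher in fibroblasts, clone 1 was nearer in 100, and over the 206 higher in ESC it was nearer in 121. Inf2, a formin, and Palm, a membrane-bound cytoskeletal protein, had fibroblast PSI above 0.97 in both libraries.

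**Figure D3:**
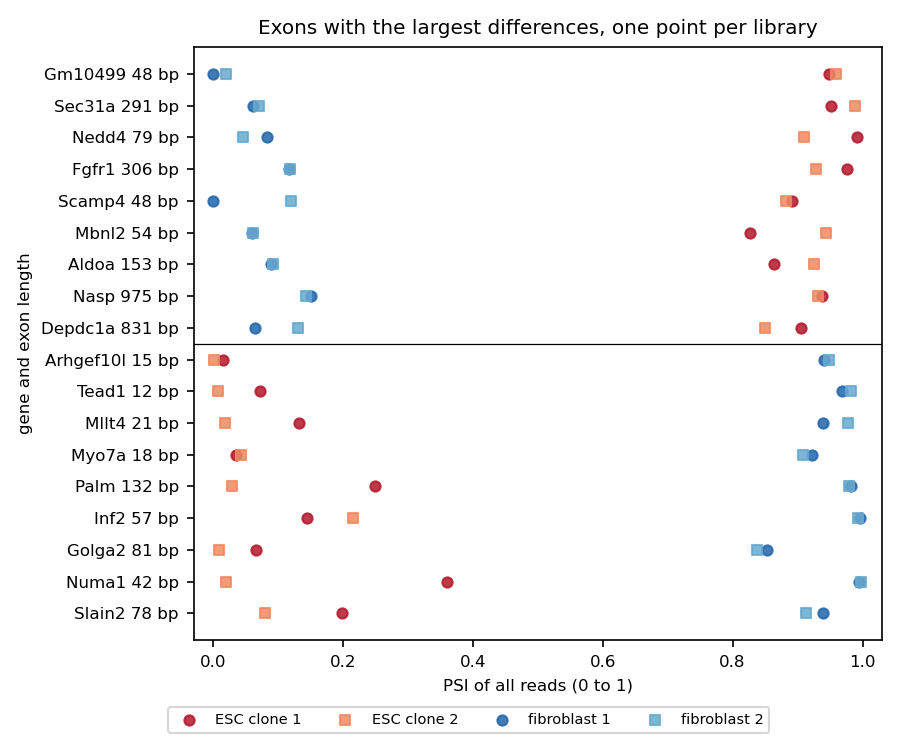
PSI in each library for 9 of the 10 exons with the largest difference in each direction; circles are first libraries and squares second libraries, red ESC and blue fibroblasts. The fibroblast points lie close together in most exons, least so in Scamp4 (0 and 0.12) and Depdc1a (0.0647 and 0.131). Clone 1 of ESC sits above clone 2 in Numa1 and Palm, and no ESC point overlaps the fibroblast points of its exon.

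Of the 25 genes tied to splicing in epithelial to mesenchymal transition, 22 had member events in 120 exons. Of these exons 7 were higher in ESC and 5 in fibroblasts, in 10 genes, 10.0% of the exons against 1.41% of all exons. The median absolute PSI difference was 0.0122 against 0.0078 over all exons, and the list was chosen for such exons. Plod2, a lysyl hydroxylase of collagen, had a 63-bp exon (chromosome 9, 92601985 to 92602047) at 0.328 and 0.205 in ESC and 0.989 and 0.988 in fibroblasts. Scrib, a polarity protein, had a 63-bp exon at 0.978 and 0.997 against 0.538 and 0.556. The 2 events moved in opposite directions. Map3k7, the kinase TAK1, had an 81-bp exon at 0.611 and 0.861 against 0.121 and 0.119, Numb, an inhibitor of Notch, a 147-bp exon at 0.384 and 0.49 against 0.058 and 0.0282, and Add3, an adducin, a 96-bp exon at 0.37 and 0.696 against 0.0219 and 0.0237. Ctnnd1, p120 catenin, had a 118-bp exon at 0.203 and 0.361 against 0.0502 and 0.0529. Cttn, Uap1 and Arhgef11 were higher in fibroblasts. The 111-bp exon of Cttn, cortactin, was at 0.846 and 0.747 against 0.961 and 0.955. Among the genes without a call, Tjp1 had a 240-bp exon at 0.107 and 0.0098 against 0.186 and 0.191. The calls in Add3, Arhgef11, Ctnnd1, Cttn, Map3k7 and Osbpl3 and that of a 48-bp exon of Uap1 were lost without fibroblast replicate 1, and those in Arhgef11 and Numb without replicate 2.

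Of the 30 genes tied to splicing in stem and differentiated cells, 26 had members, in 163 exons. Of these, 7 were higher in ESC and 7 in fibroblasts, in 11 genes, 8.59% of the exons against 1.41% of all exons. This list too was chosen for such exons, with earlier results of these data known. Add3 and Numb stand on both lists. Mbnl2 gave 2 exons and Tead1 gave 3. Picalm, a clathrin adaptor, had a 24-bp exon at 0.111 and 0.0537 against 0.823 and 0.831, and Ktn1, a kinesin-binding protein of the endoplasmic reticulum, an 84-bp exon at 0.211 and 0.303 against 0.825 and 0.832. Slain2, a microtubule plus-end protein, had a 78-bp exon at 0.198 and 0.0794 against 0.939 and 0.913. Mark2, a polarity kinase, went the other way, with a 162-bp exon at 0.936 and 0.889 against 0.215 and 0.221. The chromatin regulator Ezh2 had a 126-bp exon at 0.455 and 0.548 against 0.889 and 0.918. Besides its microexon, Tead1 carried a pair of 63-bp exons that moved in opposite directions. The first (chromosome 7, 112841888 to 112841950) was at 0.124 and 0.114 against 0.87 and 0.865. The other (112842040 to 112842102) was at 0.887 and 1 against 0.346 and 0.331, and its call was lost under thinning and without either fibroblast library. Sptan1, a spectrin, had a 15-bp exon at 0.129 and 0.0269 against 0.0414 and 0.0625, without a call.

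Of 40 cytoskeletal and matrix genes, 33 had members in 231 exons. Of these exons 6 were higher in ESC and 4 in fibroblasts (4.33%, against 1.41% of all exons). The 270-bp exon of Fn1, fibronectin, (chromosome 1, 71603660 to 71603929), known as EIIIA, was at 0.657 and 0.747 in ESC and 0.244 and 0.258 in fibroblasts. Its 273-bp EIIIB exon was at 0.536 and 0.653 against 0.207 and 0.204. Both alternatively spliced fibronectin domains were thus included more in ESC, in which the gene was at 861 and 800 TPM against 4342 and 3735. Dnm1l, the dynamin of mitochondrial fission, had a 33-bp exon at 0.724 and 0.651 against 0.0359 and 0.0254. Map4, a microtubule protein, had a 114-bp exon at 0.55 and 0.527 against 0.918 and 0.89. Actn1 and Flna had no called exon. The call of the 63-bp Ank3 exon was lost without either fibroblast library.

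Of 46 splicing factor genes, all had members in 213 exons. Of these, 8 were higher in ESC and 1 in fibroblasts, in 7 genes (4.23%, against 1.41% of all exons). The median absolute difference was 0.0062, below the 0.0078 of all exons. The Mbnl2 exons of 54 and 95 bp belong here, and the second was at 0.8 and 0.944 against 0.372 and 0.358. Ptbp1, the polypyrimidine tract-binding protein, had a 78-bp exon lower in ESC, at 0.506 and 0.431 against 0.676 and 0.681, and its paralogue Ptbp2 a 34-bp exon higher in ESC, at 0.884 and 0.872 against 0.574 and 0.629. Loss of the Ptbp2 exon is known to lead to decay of its mRNA. Tia1, Tial1, Rbm39 and Luc7l3, also RNA-binding proteins, had exons used more in ESC. Without either fibroblast library the calls in Luc7l3, Ptbp1, Ptbp2, Tia1 and Tial1 were lost, and that in Rbm39 without replicate 1. Hnrnpa2b1 with a 120-bp exon at 0.864 and 0.707 against 0.717 and 0.721 was the deepest exon of the genes without a call.

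Exons called higher in fibroblasts were often short, and exons of both directions often kept the reading frame. Of 159 exons higher in fibroblasts 23 (14.5%) had at most 30 bp, against 10 of 202 (5.0%) higher in ESC 1.8% of all members and 3.9% of the members not near 0 or 1. Exons of at least 300 bp made up 6.9% and 5.4%, against 3.7% and 5.0%. Multiples of 3 made up 67.3% and 61.4%, against 41.2% and 46.9%. Median lengths were 75 and 97.5 bp, against 113 bp in all members and 105.5 bp in those not near 0 or 1, so that the lengths of exons higher in ESC lay close to the latter. Short exons carry few exonic read positions and read length differed between the cell types, and their part in these shares was not tested.

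Among 35 splicing regulators, 28 were tested, 9 were higher in ESC (32.1%) and 3 in fibroblasts (10.7%), and the median log2 difference was 0.33. These shares lay below the 36.4% and 19.4% of all tested genes. With no filter on low values 14 were higher in ESC. Mbnl1, the muscleblind factor, was at 11.8 and 7.29 TPM in ESC and at 305 and 313 in fibroblasts, a log2 difference of -5.04 (adjusted p = 0.000805). Mbnl2 was at 97.4 and 14.3 against 258 and 260 and was not called (adjusted p = 0.073), and the clones were far apart. Celf2 and Rbms3 were also higher in fibroblasts, at 13.8 and 14.4 and at 11.9 and 12.2. Rbm47, an RNA-binding protein of epithelial cells, was at 7.68 and 5.64 against 0.181 and 0.195, and Esrp2, an epithelial splicing regulator, at 7.2 and 8.26 against 0.538 and 0.712. Esrp1 was at 4.78 and 0.332 and listed at 0 in fibroblasts. Khdrbs3 and Rbm38 were higher in ESC, Rbm38 at 100 and 111 against 4.85 and 5.2. The called difference of Celf1, at 102 and 108 against 48.0 and 47.1, was lost under median-ratio scaling.

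**Figure D4:**
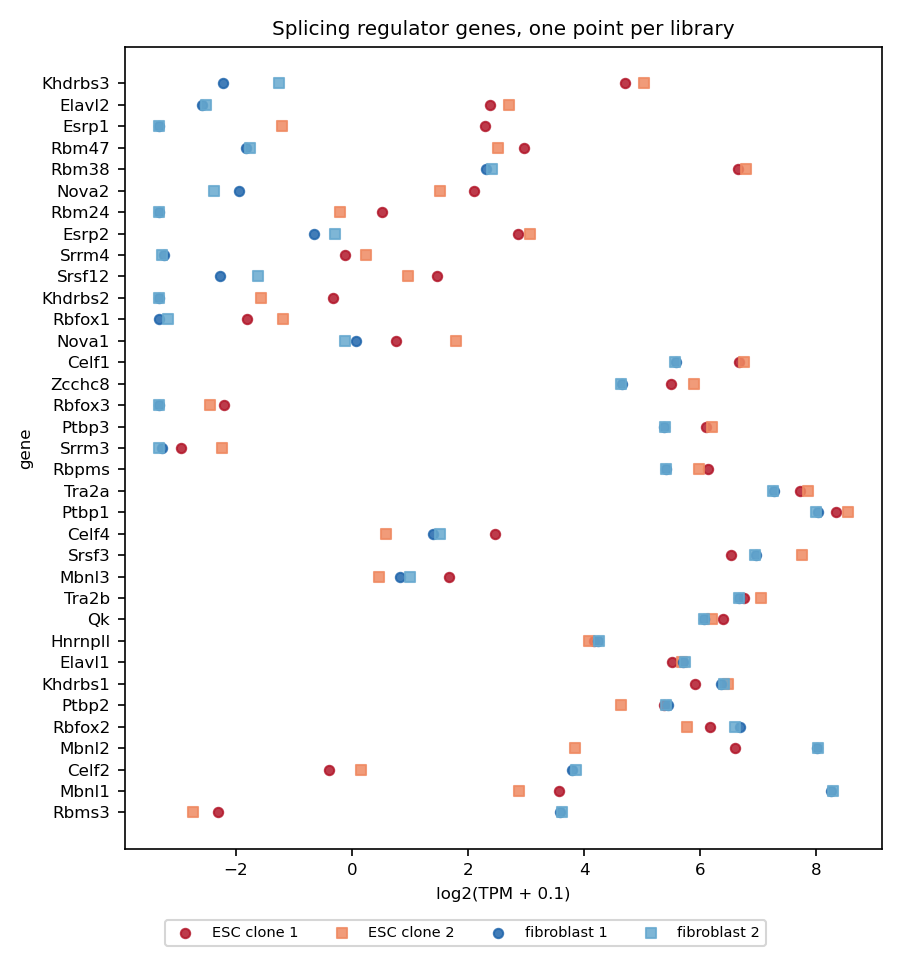
Level of 35 splicing regulator genes in each library on the log2(TPM + 0.1) scale, ordered by the difference. Mbnl1 and Rbms3 lie far higher in fibroblasts, and Khdrbs3 and Rbm47 far higher in ESC.

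Of 308 genes with a called exon and a tested expression level, 67 were also higher in ESC and 46 higher in fibroblasts, 36.7% together, against 40.4% of all 8146 genes with a member and 55.8% of all tested. The Nedd4 gene was at 322 TPM in ESC and 769 in fibroblasts on average, Mllt4 at 74.4 and 25.2, and Palm at 28.0 and 92.5. In Nedd4 the exon was higher in ESC and the gene higher in fibroblasts, and in Mllt4 the exon was higher in fibroblasts and the gene higher in ESC. The Nedd4 event had only 33 and 29 junction reads in fibroblasts, against medians of 822 and 830 per member. Its PSI therefore need not describe most transcripts of the gene.

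Both parental alleles mostly had the direction of all reads in called events with enough allelic reads. With at least 20 allelic reads per allele and library, 263 of 268 events (98.1%) did so on both C57BL/6J and SPRET/EiJ. The median absolute differences were 0.334 and 0.319. Allelic reads are part of the reads by which these events were called, so the agreement is no independent check. The share among events without a call was not computed. In Tead1 the 12-bp exon shifted by -0.95 and -0.921, and in Sec31a the 291-bp exon by 0.894 and 0.883. The 5 exceptions were in Map4, Cdc26, Sf1, Tor1aip1 and Rps9, named after their values were seen. The Map4 exons of 93 bp and 114 bp differed by 0.008 and -0.014 on C57BL/6J, where all reads gave a large difference, and the study's filter for agreement of allelic with all reads was not applied here. Of 14473 events tested for interaction of cell type and allele, 0 were called (0%) by the quasi-binomial test, the smallest adjusted p was 0.137, and 174 had an unadjusted p under 0.05. That test had no term for the library, although both alleles were counted in the same library, so spread between libraries entered its error. With library as a block, which keeps this pairing, 23 were called.

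The same exons in 6 organs of the F1 animals showed where each cell type lay. Of exons higher in ESC, cortex was nearer to ESC than to fibroblasts in 116 of 191 (60.7%), and lung in 58 of 191 (30.4%). Of exons higher in fibroblasts, lung was nearer to ESC in 53 of 150 (35.3%), heart in 54 of 149 (36.2%) and kidney in 85 of 155 (54.8%). The Sec31a exon was at 0.487 in lung and 0.981 in cortex, so both fibroblast values lay below every organ. The Nasp exon was at 0.733 in heart and under 0.2 in the other organs. Organs mix cell types, and fewer cells of a type and less RNA per cell cannot be told apart there.

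**Figure D5:**
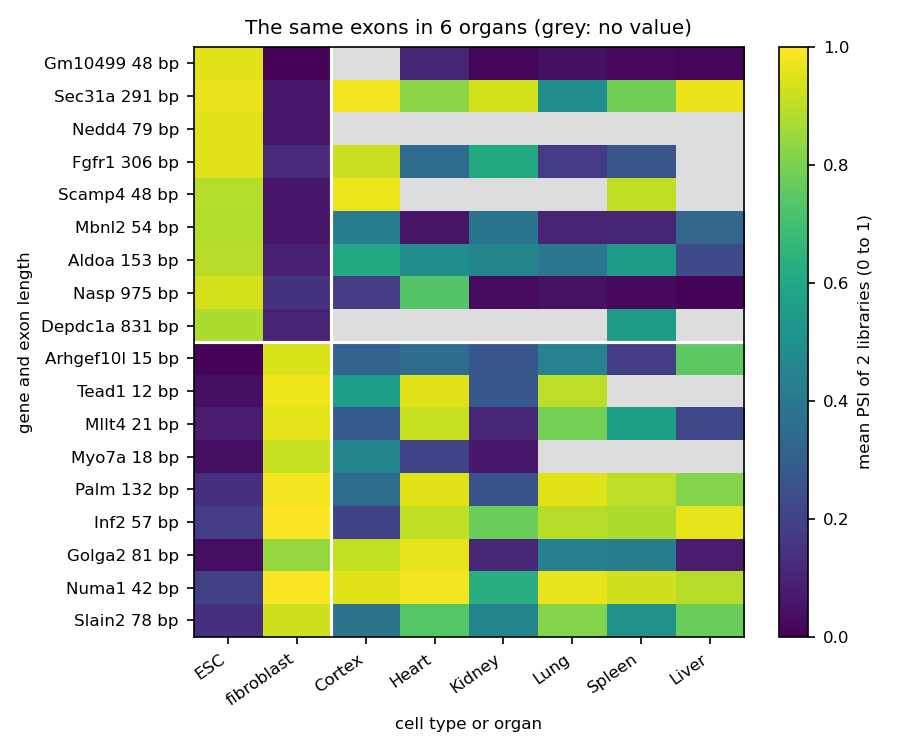
Mean PSI of 18 of the 20 exons with the largest differences in ESC, fibroblasts and 6 organs, in colour from 0 to 1. Grey marks no value: the event was not listed for that organ or had fewer than 20 reads in a library. The Sec31a exon is included in most organs, and the 12-bp Tead1 exon is included in heart and lung as in fibroblasts.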

How the data were processed

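Skipped exon junction counts of all reads and of each allele were deposited by the authors, who aligned the reads with HISAT2 2.0.1 to mm10 and a SPRET/EiJ genome and counted junctions with rMATS. The effective lengths, a score in read positions, were deposited in the same tables. Expression was deposited by the authors as TPM. PSI was computed from counts and effective lengths. Cell types were compared with a quasi-binomial model, its dispersion (at least 1) moderated with limma 3.58.1 in R 4.3.3, and TPM with limma on log2(TPM + 0.1), a scale that understates changes of low genes. P-values were adjusted by Benjamini-Hochberg.

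Members, lists and tests were chosen with earlier results of these data known. The dispersion prior was first taken from all events; this fit was run on the data and gave infinite prior degrees of freedom and 510 and 532 calls. The prior was then restricted to events with a fitted binomial variance of at least 5 in every library, and the counts in the text use it, because the first form leaves no event-specific spread. A check on simulated data with equal spread in all libraries came first. A check with more spread in ESC than in fibroblasts, at fixed values, replaced it after the real counts had been seen. Its median dispersion was 3.116, against 4.711 in the data, so the simulated spread was smaller than the real one. On all 28987 events with 200 differences set, the kept form recovered 24% of those of 0.3 and 0% of 0.15 with 0% false calls under unequal spread, and 78% and 13% with 1.09% false under equal spread. The first form gave 94% and 35% with 12.2% false, and 77% and 14% with 2.15% false. Under the simulated unequal spread, the kept test thus misses most differences of 0.3. On 16553 genes the expression fit recovered 95% of changes of 1.5 and 100% of 3 on the log2 scale. That check gave all libraries and genes the same spread. In the data the median absolute log2 difference was 0.415 between the clones and 0.059 between the fibroblast replicates. The recovery may therefore not hold for genes in which the clones differ. Named exons were the 10 of each direction with the largest called difference and non-overlapping libraries, and list members; named genes were the 10 of each direction with a mean TPM of at least 10, and list members. Of 329 list genes, all were found, 5 by older symbols. Retained introns, pladienolide B fibroblasts and the authors' comparison columns (p-values and inclusion differences) were not used here. A few named members are not reported here. Alternatives are given in the closing section.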

Additional observations from a re-analysis of the deposited data

How the results depend on the processing

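With a replicate block, 334 events were higher in ESC and 302 in fibroblasts, and 6159 and 3363 genes; the labels do not pair the numbers, and the replicate differences of ESC and fibroblasts correlated at -0.0139 in PSI. Without events near 0 or 1 the calls were 331 and 278, with reads thinned to equal depth 136 and 102, with limma on logit PSI 59 and 60, and with the first prior, from all events, 510 and 532; the last 2 were added after seeing the data. Leaving out 1 library gave 54 to 701 events higher in ESC and 56 to 1026 higher in fibroblasts: the lowest counts came without fibroblast replicate 1 and the highest without ESC clone 1, and the lone library is then assumed to vary like the other group. In the interaction of cell type and allele the calls rose from 0 to 23 with library as replicate block, to 3 with the first prior, and lay from 0 to 8 on leaving out a library. The counts over all genes stayed within 1.5 times of the reported ones under the alternatives run, but some list counts did not: with no filter on low values splicing regulators higher in ESC rose from 9 to 14, and culture targets higher in ESC fell from 5 to 3 with a filter at a TPM of 5 or without fibroblast replicate 2. On leaving out a library, methylation genes higher in fibroblasts went from 2 to 1, matrix and TGF-beta genes higher in ESC from 2 to 1, and mesenchymal genes higher in ESC from 1 to 0. No named exon or gene reversed. Of the named exons, 55 kept their call under the block and the first prior, and 28 lost it with limma on logit PSI, 14 under thinning and 22 without fibroblast replicate 1. The count test planned as a further alternative was not run. The cause of these shifts was not tested. The effect of depth was examined by thinning alone.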

Other observations

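The ESC clones differed in genes chosen after their values were seen. Clone 2 held more targets of the Wnt pathway: Cdx1 was at 136 TPM against 16.4 in clone 1, Axin2 at 39.8 against 3.41, T at 21.0 against 0.602 and Sp5 at 14.9 against 0.47. The imprinted H19 RNA was at 528 TPM in clone 1, at 13.6 in clone 2 and at 2.62 and 2.65 in the fibroblasts. Igf2, its neighbour, was at 1.7 and 0.697 in ESC against 304 and 312. With 1 library per clone these values have no replicate check.

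The cell cycle inhibitor Cdkn2a was higher in fibroblasts, at 117 and 119 TPM against 24.8 and 36.7 in ESC. Cdkn1a, another such inhibitor, was higher in ESC, at 494 and 324 against 197 and 195 (limma, adjusted p = 0.0236). Xist was at 21.1 and 2.35 TPM in the clones and at 57.3 and 56.0 in the fibroblasts, and the difference was not called (limma, adjusted p = 0.0839).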
